A study of Rattus norvegicus with 7 samples.

Results

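The genes described here are 33 lysosomal genes of the rat: hydrolases of the lysosomal lumen, proteins of the lysosomal membrane, and the regulators Tfeb and Grn. They were chosen as a list of symbols, and all 33 were found among 17246 genes with values. The RNA came from meibomian glands, the oil glands of the eyelid, of wild-type female Sprague-Dawley rats aged 3 months. The control group has 4 libraries labelled as having no treatment. The UVB group has 3 libraries from rats whose shaved upper lids received ultraviolet B light at 300 mJ/cm2, in sessions of 5 min a day on 5 days. The protocol text is the same for every sample and does not say whether control lids were shaved, how long after the last session glands were taken, or whether a library is 1 animal. P-values therefore measure the spread between these libraries. Glands were dissected from removed lids, so each library can hold other lid tissue.

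Lysosomes are acidic compartments in which hydrolases break down proteins, glycans, lipids and nucleic acids that arrive from outside the cell or by autophagy. Many of the soluble enzymes are sorted there by the mannose 6-phosphate signal and activated by proteolysis, and heavily glycosylated membrane proteins line the compartment. In the meibomian gland the oil-producing cells, the meibocytes, are shed whole as secretion, a holocrine process in which the cell's contents, its nucleus included, are broken down. Bulk RNA does not tell fewer cells of a type from less RNA per cell, and it does not measure enzyme activity.

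Library totals ran from 20680237 to 28784941 counts, and the lowest count of any of the 33 genes in any library was 197, for Ctss. Meibocyte markers were abundant: their summed level was 43618 to 52931 TPM (a level corrected for gene length) in controls and 40325 to 47015 in UVB libraries. Libraries carry letters (control a, b, c and d, UVB a, b and c), which link nothing between groups, and values are listed in that order. Levels by library are in CPM, counts scaled with TMM factors to a common library total, and changes are log2 fold changes of UVB over control from edgeR's quasi-likelihood test with Benjamini-Hochberg adjustment over 13709 genes. A gene is said to have risen or fallen where the adjusted p was under 0.05.

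After UVB, 5 lysosomal genes rose and 4 fell, and no change in either direction exceeded 1.5-fold. Gusb, Grn, Glb1, Gla and Ctsz rose, while Manba, Hexa, Mcoln1 and Ppt1 fell. Among all genes tested 6.30% rose and 6.74% fell, 13.0% in either direction, beside 15.2% and 12.1% of the 33. The other 24 did not pass the test. Across the 33 the log2 fold changes ran from -0.58 to 0.57 with a median of 0.0011, beside a median of -0.0058 over all genes tested, and 17 were above 0 and 16 below. The UVB and control libraries did not overlap for 12 of the 33, 5 higher and 7 lower, or 36.4%, beside 26.6% of all genes (12.8% higher and 13.8% lower). The counts depended on single libraries. The 5 that rose became 1 without control c, 2 without UVB c and 3 without control d. The 4 that fell became 1 without control c, control d or UVB b, and 2 without control a, UVB a or UVB c. Gusb and Manba alone passed in the main fit and under all 16 alternatives, with adjusted p up to 0.0166 and 0.0422.

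**Figure D1:**
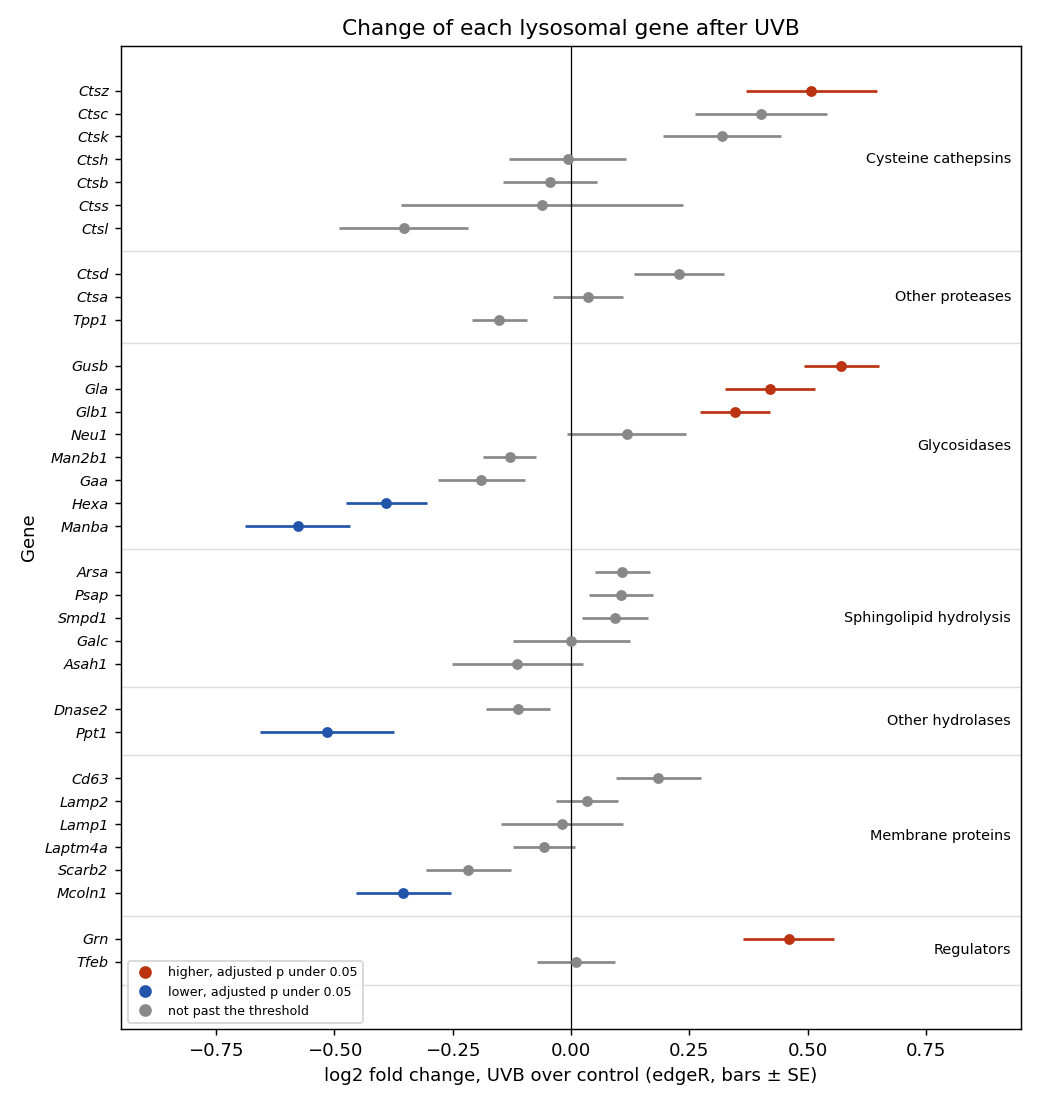
Log2 fold change of UVB over control for each of the 33 lysosomal genes, grouped by role, as points with bars of 1 standard error; colour marks genes past an adjusted p of 0.05 in edgeR. The glycosidases hold changes in both directions, from -0.58 for Manba to 0.57 for Gusb. The 5 genes grouped under sphingolipid breakdown lie close to 0. Glb1, Gla and Hexa, which also act on glycolipids, are grouped with the glycosidases.

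The glycosidases, enzymes that remove sugars from glycoproteins, glycolipids and glycosaminoglycans, had 3 of 8 higher and 2 of 8 lower, beside 6.30% and 6.74% of all genes. Without control c, Gusb and Manba were the only calls among the 8. Gusb encodes beta-glucuronidase, which takes glucuronic acid off glycosaminoglycans. Its level was 42.9, 44.9, 44.1 and 38.4 CPM in controls a, b, c and d and 57.1, 67.1 and 65.5 CPM in UVB a, b and c. Every UVB library lay above every control, and the log2 fold change was 0.57 (adjusted p = 0.0044 in edgeR, standard error 0.080). Manba encodes beta-mannosidase, which cuts a late link in the breakdown of N-linked glycans. It measured 30.7, 41.6, 33.4 and 36.6 CPM in controls and 24.4, 21.6 and 25.5 CPM after UVB. All UVB libraries lay below all controls, with a log2 fold change of -0.58 (adjusted p = 0.0119 in edgeR, standard error 0.11).

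Enzymes that remove the end sugars of gangliosides and related glycolipids moved in different directions. Glb1, the beta-galactosidase that acts on GM1 ganglioside and keratan sulfate, stood at 26.1, 29.5, 27.9 and 29.3 CPM in controls and at 34.5, 34.6 and 38.4 CPM after UVB. The groups were apart and the log2 fold change was 0.35 (adjusted p = 0.0185 in edgeR, standard error 0.074). Gla, the alpha-galactosidase A that breaks down globotriaosylceramide, read 16.8, 14.6, 13.4 and 14.7 CPM in controls against 19.5, 20.6 and 19.5 CPM in UVB libraries. It too was higher in every UVB library, by a log2 fold change of 0.42 (adjusted p = 0.0221 in edgeR, standard error 0.095). Hexa encodes the alpha subunit of beta-hexosaminidase A, the enzyme that degrades GM2 ganglioside. Its controls were at 67.3, 68.3, 75.8 and 74.7 CPM and its UVB libraries at 61.6, 49.8 and 52.4 CPM. UVB a was the nearest to the controls but still below them, and the log2 fold change was -0.39 (adjusted p = 0.0198 in edgeR, standard error 0.085).

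These 3 calls were less firm than those of Gusb and Manba. Glb1 no longer passed without control c (edgeR adjusted p = 0.0561) or UVB c (0.0579). The call on Gla needed controls b, c and d and UVB b, and that on Hexa controls c and d and UVB b and c, with adjusted p of at most 0.0651 where one of them was left out. Counts of Glb1 were not whole in 6 libraries, and the RefSeq annotation places Tmppe and a long non-coding RNA over part of it. Tmem202 lies over part of Hexa, while Gusb, Manba and Gla have no overlapping gene there. Of the other glycosidases, Man2b1, the lysosomal alpha-mannosidase, measured 86.7 to 94.2 CPM in controls and 80.9 to 84.8 CPM after UVB. The groups were apart, but the log2 fold change of -0.13 did not pass (edgeR adjusted p = 0.161). Gaa, which releases glucose from glycogen, had a log2 fold change of -0.19 (edgeR adjusted p = 0.203) and Neu1, the sialidase, one of 0.12 (0.572), both with overlapping groups. Summed over the 8 glycosidases the level was 246 ± 8.57 TPM in controls and 242 ± 4.90 TPM after UVB (SD, n = 4 and 3).

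**Figure D2:**
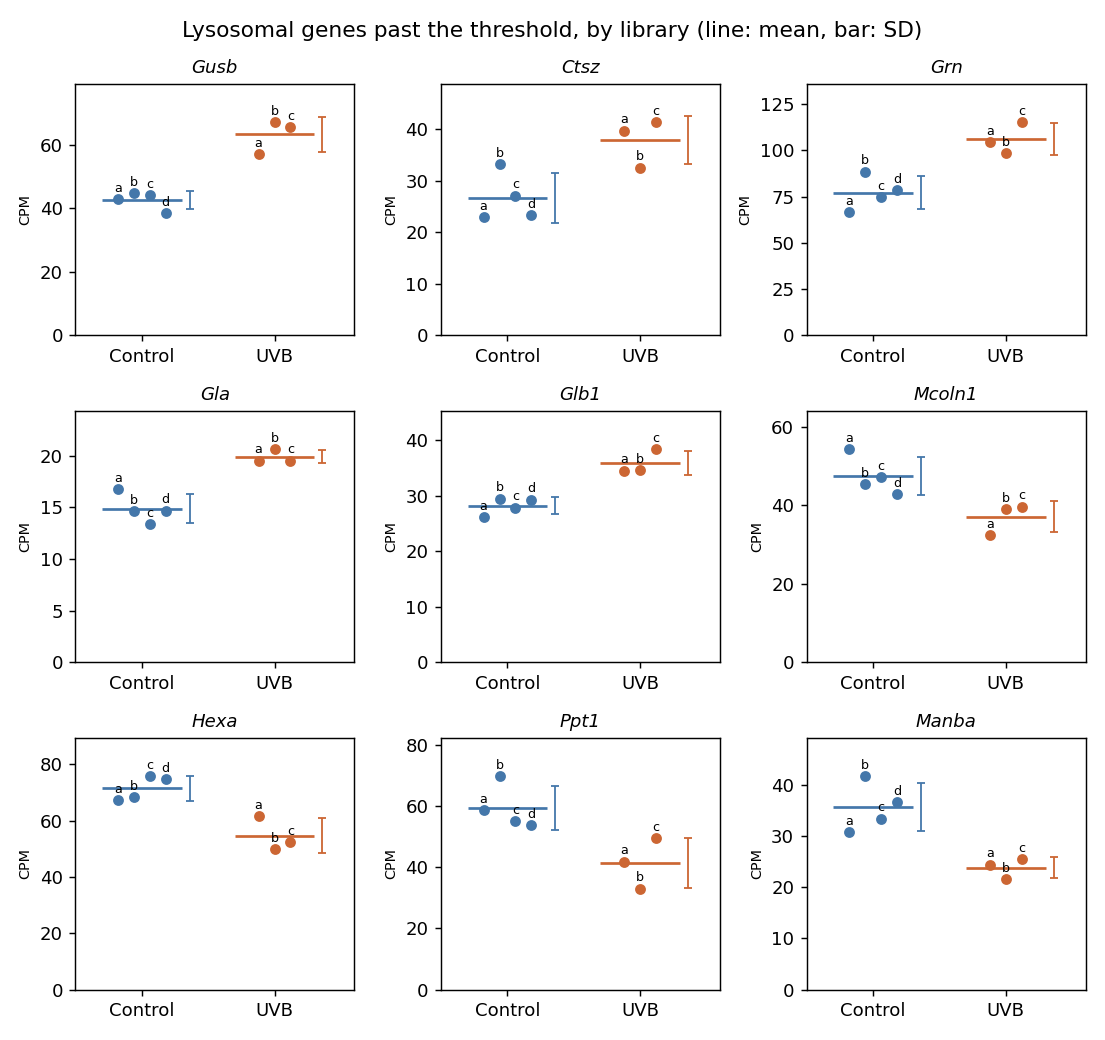
CPM of each library for the 9 lysosomal genes past an adjusted p of 0.05, with a line at the group mean and bars of 1 SD (n = 4 control and n = 3 UVB libraries); every axis starts at 0. The groups are apart for 8 genes and overlap for Ctsz, where UVB b (32.6 CPM) is below control b (33.2 CPM).

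Several of these enzymes work as parts of one complex, so the ratio of their levels was compared for 4 pairs chosen after their values were seen. Glb1 and Neu1 are held in a complex by Ctsa, the protective protein cathepsin A. The ratio of Glb1 to Ctsa in TPM was 0.136, 0.152, 0.162 and 0.154 in controls and 0.185, 0.194 and 0.182 after UVB. It was higher in every UVB library. That gave the smallest p that 35 splits allow in an exact two-sided permutation test (p = 0.0286), and 0.114 after adjustment over the 4 pairs. Glb1 alone already had its groups apart, and Ctsa had a log2 fold change of 0.036. This p therefore adds nothing beyond the Glb1 call. Counts of Ctsa were not whole in all 7 libraries, and Neurl2 and Pltp overlap part of it. The ratio of Neu1 to Ctsa (0.159 against 0.170, exact permutation p = 0.743) and of Glb1 to Neu1 (0.956 against 1.14, exact permutation p = 0.229) did not pass.

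The cysteine cathepsins, the main papain-like proteases of the lysosome, had 1 of 7 genes past the threshold (14.3%), near the 13.0% of all genes. Ctsz encodes cathepsin Z, a carboxypeptidase abundant in macrophages and other immune cells. It measured 23.0, 33.2, 27.1 and 23.3 CPM in controls and 39.8, 32.6 and 41.4 CPM after UVB. UVB b lay within the control range, and the log2 fold change was 0.51 (adjusted p = 0.0433 in edgeR, standard error 0.14). The call was lost under 9 of 16 alternatives, among them scaling by library size alone and leaving out control a, c or d or UVB a or c (adjusted p up to 0.122), and Nelfcd overlaps part of the gene. Ctsc, the dipeptidyl peptidase that activates the serine proteases of immune cell granules, was at 46.9 to 65.6 CPM in controls and at 66.8 to 90.9 CPM after UVB. Its groups were apart, but the log2 fold change of 0.40 did not pass (edgeR adjusted p = 0.0955), though DESeq2 called it (adjusted p = 0.0379).

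Ctsl and Ctsb are the most abundant cysteine cathepsins in this gland. Cathepsin L, a broad endopeptidase with a known role in skin and hair follicles, stood at 481, 343, 476 and 441 CPM in controls and at 334, 294 and 394 CPM after UVB. Control b sat among the UVB libraries, and the log2 fold change of -0.35 did not pass (adjusted p = 0.122 in edgeR, standard error 0.14). Without control b it was -0.45 and passed (edgeR adjusted p = 0.0380). Cathepsin B, an endopeptidase that also trims dipeptides from a chain end, gave 579, 733, 625 and 680 CPM in controls and 674, 563 and 666 CPM after UVB. The groups overlapped and the log2 fold change was -0.045 (adjusted p = 0.803 in edgeR, standard error 0.099). It was above 0 without control b or without UVB b.

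Ctsk encodes cathepsin K, the collagen-degrading enzyme of osteoclasts and some fibroblasts. Its controls were at 12.2, 16.9, 13.4 and 15.0 CPM and its UVB libraries at 19.9, 16.4 and 17.6 CPM, where UVB b was below control b (log2 fold change 0.32, SE 0.13, edgeR adjusted p = 0.124). Ctss encodes cathepsin S, which prepares MHC class II molecules for antigen presentation. It read 9.20, 24.0, 15.3 and 12.6 CPM in controls against 14.2, 12.3 and 17.5 CPM after UVB, with control b the highest of all. Its controls were the most variable of the 33 genes (coefficient of variation 41.5%), the log2 fold change was -0.061 (adjusted p = 0.917 in edgeR, standard error 0.30), and its sign turned under 6 alternatives. Ctsh, an aminopeptidase, had a log2 fold change of -0.0070 (edgeR adjusted p = 0.979).

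Among the other proteases none of 3 passed, beside 13.0% of all genes. Ctsd encodes cathepsin D, the aspartic protease of the lysosome, and was the most abundant of the 33 genes. Tnni2, a muscle gene, overlaps part of it in the annotation. It measured 1349.8, 1205, 1139 and 1243 CPM in controls and 1271, 1500.3 and 1567 CPM after UVB. UVB b and c were above every control and UVB a was among them, and the log2 fold change of 0.23 did not pass (adjusted p = 0.142 in edgeR, standard error 0.095). Tpp1, the tripeptidyl peptidase, ran from 109 to 115 CPM in controls and from 94.4 to 105 CPM after UVB, with the groups apart but not past the threshold (log2 fold change -0.15, edgeR adjusted p = 0.120). Ctsa had a log2 fold change of 0.036 (edgeR adjusted p = 0.789).

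None of the 5 genes grouped here under breakdown of sphingolipids passed, and none had groups apart, beside 13.0% and 26.6% of all genes. Sphingolipids include the ceramides of skin and meibum, and Glb1, Gla and Hexa of the glycosidases also act on lipids of this class. Psap encodes prosaposin, which is cut into the saposins that present these lipids to their hydrolases. It stood at 789, 766, 748 and 739 CPM in controls and at 827, 856 and 771 CPM after UVB. UVB c lay within the control range and the others above it, and the log2 fold change was 0.11 (adjusted p = 0.335 in edgeR, standard error 0.068). The remaining log2 fold changes were 0.11 for Arsa, which desulfates sulfatide, 0.094 for Smpd1, the acid sphingomyelinase, 0.0011 for Galc, the galactosylceramidase, and -0.11 for Asah1, the acid ceramidase. Their edgeR adjusted p-values ran from 0.247 to 0.997. Counts of Galc were not whole in all 7 libraries, and Gpr65 overlaps it in the annotation, as Cdh23 does Psap.

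Ppt1 encodes palmitoyl-protein thioesterase, which removes palmitate from proteins during their breakdown. It measured 58.7, 69.7, 55.1 and 53.8 CPM in controls and 41.9, 33.1 and 49.5 CPM after UVB. All UVB libraries were below all controls, with a log2 fold change of -0.52 (adjusted p = 0.0463 in edgeR, standard error 0.14). The call was lost whichever library other than UVB c was left out, with scaling by library size alone, and in the fits of TPM values (adjusted p up to 0.106). A long non-coding RNA overlaps the gene in the annotation. Dnase2 encodes the acid DNase that degrades nuclear DNA in holocrine sebaceous cells of mice. It ran from 58.4 to 67.2 CPM in controls and from 55.5 to 57.8 CPM after UVB. The groups were apart, but the difference was small and did not pass (log2 fold change -0.11, SE 0.067, edgeR adjusted p = 0.297).

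Of the 6 membrane proteins, 1 fell and none rose. The 16.7% called was near the 13.0% of all genes. Mcoln1 encodes mucolipin 1, the channel that releases calcium from lysosomes. It read 54.3, 45.4, 47.2 and 42.9 CPM in controls and 32.5, 39.1 and 39.7 CPM after UVB. The groups were apart, with a log2 fold change of -0.35 (adjusted p = 0.0461 in edgeR, standard error 0.10), and the call was lost whichever library was left out (adjusted p from 0.0565 to 0.124). Its counts were fractional in all 7 libraries, and a long non-coding RNA overlaps it.

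The structural membrane proteins LAMP1 and LAMP2, which make up much of the lysosome's coat, did not pass. Lamp1 was at 849, 705, 833 and 668 CPM in controls and at 798, 852 and 614 CPM after UVB, with a log2 fold change of -0.018 (adjusted p = 0.944 in edgeR, standard error 0.13). The groups overlapped, and UVB libraries were both the highest and the lowest. Lamp2, which also serves chaperone-mediated autophagy, was at 295, 264, 255 and 265 CPM in controls and at 273, 278 and 278 CPM after UVB (log2 fold change 0.035, SE 0.065, edgeR adjusted p = 0.764). All UVB values fell inside the control range. Cd63, a tetraspanin of late endosomes and secretory granules, was at 90.4, 105, 92.4 and 98.5 CPM in controls and at 126, 99.4 and 104 CPM after UVB. Only UVB a stood above the controls (log2 fold change 0.18, SE 0.090, edgeR adjusted p = 0.203). Scarb2, the receptor that carries glucocerebrosidase to lysosomes, had a log2 fold change of -0.22 (edgeR adjusted p = 0.141) and Laptm4a one of -0.057 (0.604).

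Grn encodes progranulin, a secreted protein that is taken into lysosomes and cut into granulins, and it rose. It measured 66.7, 88.5, 74.7 and 78.5 CPM in controls and 104, 98.4 and 115 CPM after UVB. Every UVB library lay above every control, with a log2 fold change of 0.46 (adjusted p = 0.0167 in edgeR, standard error 0.096). With control c left out the adjusted p was 0.0517, and with UVB c left out 0.0535, and no annotated gene overlaps Grn. Tfeb encodes the transcription factor that switches on lysosomal genes when it enters the nucleus, so its RNA level does not report its activity. It stood at 72.8, 62.5, 63.6 and 60.1 CPM in controls and at 60.9, 70.5 and 64.3 CPM after UVB. The groups overlapped throughout, and the log2 fold change was 0.011 (adjusted p = 0.946 in edgeR, standard error 0.082).

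TFEB and its relatives bind an E-box, CACGTG, most often as the longer TCACGTGA, and both spellings read the same on either strand. RefSeq promoter windows of assembly GRCr8, 250 bases before to 50 after the start, were on hand for 26 of the 33 genes. CACGTG was in 7 of the 26, Ctsd, Lamp1, Galc, Mcoln1, Glb1, Gaa and Cd63, and in 6.42% of all 33469 windows. TCACGTGA, which contains the shorter spelling, was in Ctsd, Lamp1, Galc and Mcoln1, and in 0.777% of all windows. The stretches printed here are those of the most abundant gene, Ctsd, of Glb1, which rose, of Mcoln1, which fell, and of Lamp1 and Galc, which hold the longer spelling, 5′ to 3′ on the gene's strand with CACGTG in capitals.
Ctsd, chr1:206968822-206969001, minus strand: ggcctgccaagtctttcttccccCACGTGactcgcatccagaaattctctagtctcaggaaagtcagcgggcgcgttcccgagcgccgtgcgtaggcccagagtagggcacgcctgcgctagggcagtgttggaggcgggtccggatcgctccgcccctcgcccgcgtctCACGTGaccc
Glb1, chr8:122963598-122963717, plus strand: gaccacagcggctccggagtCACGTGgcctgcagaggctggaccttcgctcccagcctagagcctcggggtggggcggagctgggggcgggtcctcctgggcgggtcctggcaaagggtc
Mcoln1, chr12:6358224-6358253, plus strand: cgtcaagcttgtCACGTGttcgacccaggc
Lamp1, chr16:83075084-83075113, minus strand: cgcggcactgttCACGTGacaggcgctgcc
Galc, chr6:123245562-123245591, minus strand: gggtgccacagtCACGTGacccgcacaatg

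Distances are to the start used in the promoter table, which is the annotated gene start for 15 of the 26 genes, Ctsd and Glb1 among them, and not for Mcoln1, Lamp1 or Galc. In the Ctsd stretch the E-boxes begin 157 and 10 bases before the start, and the nearer one is the longer spelling. Lamp1 had 5 matches in its window, at 183, 167, 150, 65 and 38 bases before the start. The printed Mcoln1 match begins 22 bases before the start, and its longer spelling lies after the start. The 7 genes with a match did not move together: Glb1 rose and Mcoln1 fell, and the log2 fold changes of the other 5 were 0.23 for Ctsd, 0.18 for Cd63, 0.0011 for Galc, -0.018 for Lamp1 and -0.19 for Gaa, none past the threshold. A match is a run of letters and was not measured as a binding site.

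Levels spanned a wide range in controls. In TPM, which can be compared between genes, Ctsd led with 1067 ± 63.4, followed by Lamp1 with 656 ± 80.9, Ctsb with 610 ± 61.7 and Psap with 501 ± 13.1 (SD, n = 4). Manba at 16.0 TPM, Gla at 10.5 TPM and Galc at 5.47 TPM closed the order. The ranges of Ctsd and Lamp1, of Ctsb and Psap, of Manba and Gla and of Gla and Galc were apart, while Lamp1 and Ctsb overlapped, as did every neighbouring pair from Dnase2 (74.6 TPM) down to Manba. The genes that changed had control means of at most 60.5 TPM, the level of Hexa. The 33 levels summed to 5428, 5285, 5388 and 5232 TPM in controls and to 5510, 5395 and 5570 TPM after UVB, at most 0.676% of the deposited TPM of a library. Without Ctsd the sums were 4267 ± 86.4 TPM in controls and 4233 ± 139 TPM after UVB (SD, n = 4 and 3).

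**Figure D3:**
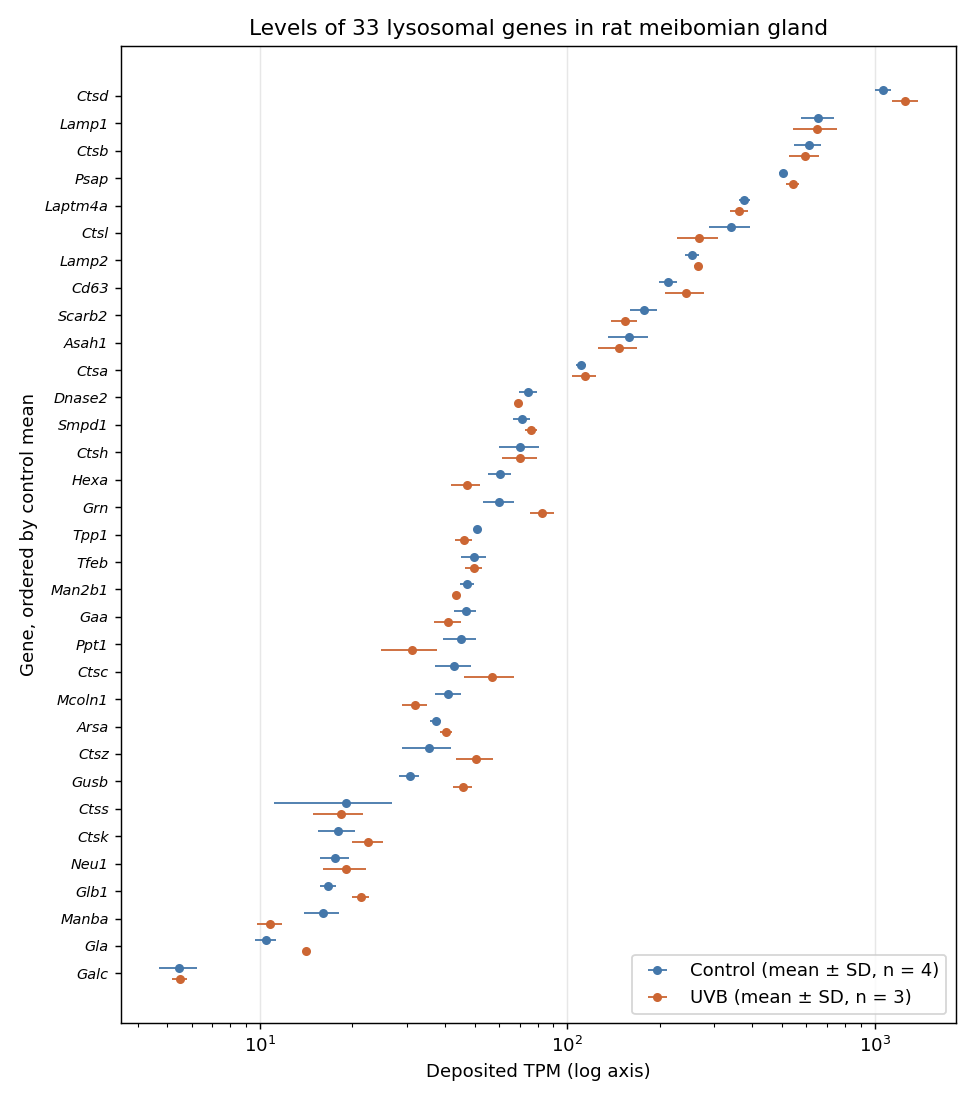
Mean TPM of the 33 lysosomal genes in control and UVB libraries on a log axis, with bars of 1 SD (n = 4 control and n = 3 UVB libraries), ordered by the control mean. Ctsd leads with 1067 TPM and Galc is lowest with 5.47 TPM. Over all 33 the sum was 5334 ± 90.5 TPM in controls and 5492 ± 89.3 TPM after UVB.

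The rest of the lysosomal pathway, together with inhibitors of lysosomal and epidermal proteases, was read from 154 further symbols. The genes tested numbered 134. Of these 4 rose (2.99%) and 17 fell (12.7%), 3 of the 17 being inhibitors, beside 6.30% and 6.74% of all genes. The 15.7% called in either direction was near the 13.0% of all genes. The median log2 fold change was -0.063, with 87 below 0. The 21 calls became 8 without control d, 9 without control c, 11 without UVB b and 13 without control b or UVB a. Other hydrolases gave 7 of 31 lower and 1 higher. Fuca2, a fucosidase, had a log2 fold change of -0.43 (edgeR adjusted p = 0.0077), and Galns, which desulfates keratan and chondroitin sulfate, one of -0.52 (0.0104). Ctsw, the cathepsin of cytotoxic lymphocytes, fell by 1.97 but never exceeded 1.5 CPM. Lipa, the acid lipase that splits cholesteryl esters and triglycerides, had a log2 fold change of 0.36 (edgeR adjusted p = 0.0542), and Lgmn, which matures cathepsins, one of 0.23 (0.390).

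Inhibitors of lysosomal and epidermal proteases had 3 of 5 genes lower, beside 6.74% of all genes. Cst6, the cystatin that restrains cathepsin L and legumain in skin, was at 948, 1387, 1452 and 1575 CPM in controls and at 619, 368 and 671 CPM after UVB. All UVB libraries were below all controls, with a log2 fold change of -1.28 (adjusted p = 0.0165 in edgeR, standard error 0.24) that passed under all 16 alternatives. Spink5, an inhibitor of serine proteases of the epidermis, fell by 0.74 (edgeR adjusted p = 0.0245) and Cstb, a cytosolic cystatin, by 0.28 (0.0301). Each lost its call without control d, and Spink5 also without control a or b, Cstb also without control c, UVB a, UVB b or UVB c. Cst3, the secreted cystatin C, had a log2 fold change of -0.39 (edgeR adjusted p = 0.115).

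The proton pump that acidifies lysosomes, the V-ATPase, had 1 of 18 tested genes lower (5.56%), beside 6.74% of all genes. Its subunit gene Atp6v1c1 stood at 88.9, 89.3, 89.7 and 93.5 CPM in controls and at 72.4, 73.7 and 71.5 CPM after UVB. The libraries within each group were close and the groups apart (log2 fold change -0.32, SE 0.053, edgeR adjusted p = 0.0077), and the call held under all 16 alternatives. Atp6v0d2, the subunit of osteoclasts and macrophages, was too low to be tested.

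In the other membrane and lumen transport proteins, 1 of 22 genes rose and 2 fell, beside 6.30% and 6.74% of all genes. Npc2, which hands cholesterol out of the lysosome, rose by 0.47 (edgeR adjusted p = 0.0327). Ctns, the cystine exporter, fell by 0.48 (0.0230) and Laptm4b by 0.26 (0.0299), and these 3 calls were lost without 1 of several libraries. Among sorting genes 1 of 16 rose, Ap1m1 of the AP-1 coat (log2 fold change 0.25, edgeR adjusted p = 0.0369), a call lost whichever library was left out. In the control list, relatives of Tfeb differed: Tfe3 had a log2 fold change of 0.31 (edgeR adjusted p = 0.0355) and Mitf, also the factor of melanocytes, one of -0.46 (0.0273), and both calls were lost without control b, control d or UVB b. In the list of autophagy and vesicle fusion 3 of 25 fell: Gabarapl1 by 0.47 (edgeR adjusted p = 0.0146) and Gabarapl2 by 0.37 (0.0115), both ubiquitin-like proteins of autophagosomes and called under all 16 alternatives, and the fusion protein gene Vamp8 by 0.20 (0.0413), whose call was lost whichever library was left out. Adat1 overlaps Gabarapl2, whose counts were fractional in all 7 libraries.

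**Figure D4:**
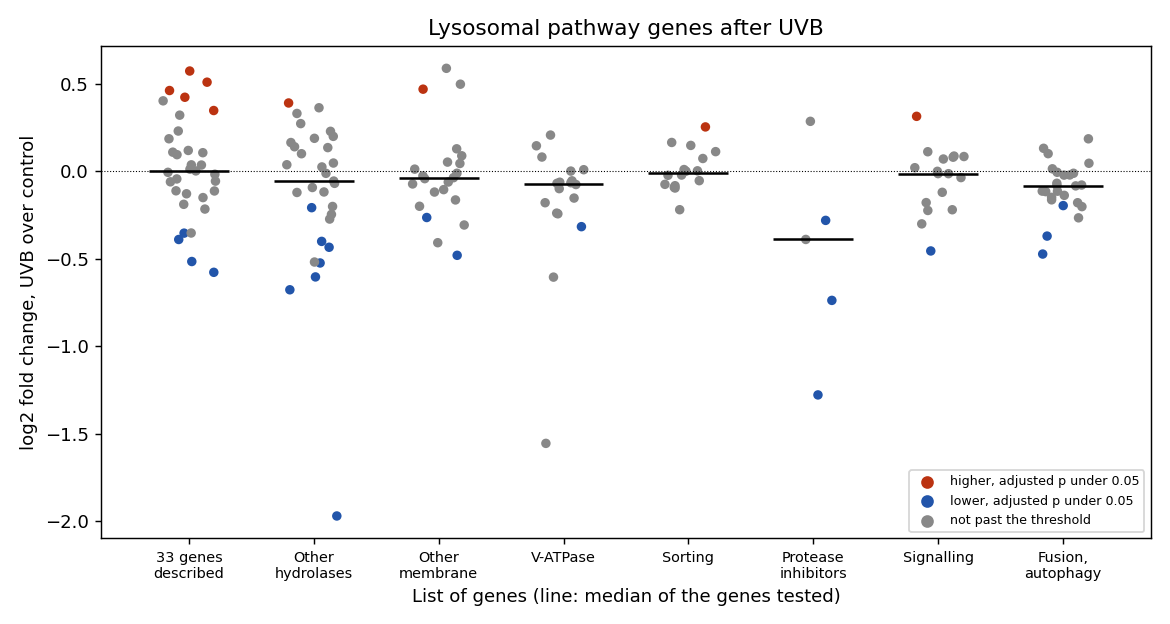
Log2 fold change of UVB over control for the 33 lysosomal genes and for 7 lists of other pathway genes, 1 point per tested gene with a line at each list's median; colour marks genes past an adjusted p of 0.05. The 33 genes centre on 0 with calls on both sides, while 17 of the 21 calls among the other genes lie below 0. Of these 17, 3 are protease inhibitors.

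Some markers of other cell types differed in RNA level between these groups too. Among all genes tested 6.30% rose and 6.74% fell. Of 11 tested macrophage markers 5 rose, with log2 fold changes of 3.50 for Cd163, 1.75 for Mrc1, 1.29 for C1qb, 0.93 for C1qc and 0.89 for Cd14, and 6 did not pass. Their log2 fold changes were 0.85 for C1qa, 0.58 for Aif1, 0.11 for Adgre1, -0.0093 for Csf1r, -0.41 for Cd68 and -0.77 for Lyz2, whose mean was 120.2 CPM in controls and 70.7 CPM after UVB. The summed macrophage level was 193 to 524 TPM in controls and 234 to 385 TPM after UVB, with Msr1 and Vsig4 at or under 1 TPM. Control b had the highest sum, led by Lyz2. Of the 33 genes, Ctss, Ctsb, Ctsz, Grn, Ctsk, Ctsh, Ctsa, Gusb, Glb1, Neu1, Manba, Ppt1 and Cd63 were also highest there among controls. Ctsl, Scarb2 and Arsa were lowest there. Ctsd, Lamp1, Psap, Lamp2, Tfeb, Asah1, Gaa, Gla, Mcoln1 and Ctsl were highest in control a. UVB b had the lowest sum of its group. Lowest there too were Grn, Ctsz, Ctsc, Ctsk, Ctss, Ctsb, Ctsl, Ctsh, Ctsa, Hexa, Manba, Ppt1, Scarb2, Cd63 and Smpd1. Gusb, Gla, Gaa, Man2b1, Neu1, Arsa, Galc, Psap, Dnase2, Lamp1 and Tfeb were highest in UVB b. A link of these genes to the macrophage sum was not tested. Mast cell markers had 3 of 7 higher, and their sum was at most 30.6 TPM in controls and at least 40.2 TPM after UVB, with Mcpt1 at 0. Kit, which did not pass (edgeR adjusted p = 0.0693), held a mean of 17.8 TPM in controls and 23.2 TPM after UVB. Hdc, which rose, was at 16.7, 3.06 and 4.85 CPM in UVB a, b and c. Fibroblast markers had 4 of 7 higher (908 to 1418 against 1192 to 1924 TPM), with overlapping sums. The others, Col3a1 (log2 fold change 0.019), Fap (-0.41) and Col1a1 (-0.48), did not pass. Neutrophil markers had 2 of 3 higher, S100a9 and Csf3r (1579 to 1776 against 1841 to 2115 TPM in sum). S100a8 led this sum with means of 1354 TPM in controls and 1488.5 TPM after UVB, and did not pass (edgeR adjusted p = 0.244). Csf3r had a mean of 1.12 TPM after UVB, with Elane at 0 and Mpo, Ngp and Mmp8 at or under 1 TPM. Of the osteoclast markers Acp5 and Mmp9 rose (61.7 to 79.2 against 83.4 to 95.0 TPM in sum), with Calcr, Ocstamp and Dcstamp at or under 1 TPM.

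Meibocyte markers had none of 10 higher and 2 lower, Awat2 (log2 fold change -0.66) and Plin2 (-0.45). The others did not pass and lay on both sides of 0. Those above were Mc5r (0.82), Elovl3 (0.54, edgeR adjusted p = 0.0506), Fasn (0.32), Pparg (0.22) and Soat1 (0.10). Those below were Scd (-0.040), Far2 (-0.13) and Elovl4 (-0.24). Markers of basal and duct cells had 2 of 5 higher, of endothelium 2 of 4 higher, of lymphocytes 1 of 4 higher, of epidermis 1 of 5 lower, of dendritic cells 1 of 5 lower and of Schwann cells 2 of 6 lower. Log2 fold changes lay above 0 for 2 of 5 basal and duct, 2 of 4 lymphocyte, 2 of 5 epidermal and 2 of 5 dendritic markers. They lay above 0 for all 4 endothelial markers and below 0 for all 6 Schwann cell markers. None of the conjunctival (2 tested) or muscle (6 tested) markers passed. The part of these cells in the changes of lysosomal genes was not tested.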

How the data were processed

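RNA of meibomian glands was sequenced in 4 control and 3 UVB libraries. The authors deposited expected counts per gene, which they call raw, and TPM values. FastQC, Trimmomatic, DRAGEN, Picard and the build rn7 are named in the submitters' processing notes; the annotation and strand handling are not given in the sources used here, so reads of overlapping genes may not be separable. Because names with unquoted commas shift cells in 2280 genes, 6 of the 33 among them, values were read from the right end of each row; 5 rows with text among their values were left out. Of the deposited expected counts 12.5% were not whole. Column names give the group and not the labels' replicate number. Every pair of libraries in a group differed by more than sampling noise (chi-square per degree of freedom at least 10.5), and each counted as 1 replicate.

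The design assumed counts; expected counts were rounded, and edgeR 4.0.16 under R 4.3.3 was run with TMM scaling, the filterByExpr filter, robust quasi-likelihood fits and a threshold of 0.05. An SE is the size of the log2 fold change over the root of F. Alternatives were DESeq2 1.42.0, limma 3.58.1 (voom, and log2 of the authors' deposited TPM plus 1 or 0.1), other scalings and filters, and each library left out. On simulated counts with 200 genes changed 2-fold, edgeR recovered 91.0% of them.

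The 33 genes and all lists were chosen with earlier results of these data known. Values by library are given for genes past the threshold and for Ctsb, Ctsd, Ctsk, Ctsl, Ctss, Lamp1, Lamp2, Cd63, Psap, Tfeb and Grn. From each pathway list up to 3 called genes of smallest p are named, with Lipa, Lgmn, Cd68, Cst3, Mitf, Tfe3 and Atp6v0d2; 1 gene of this rule, and the ratio that uses it, are not reported here. Cd68 had a log2 fold change of -0.41 (adjusted p = 0.186) and Atp6v0d2 at most 0.327 CPM. Marker lists of other lid cell types were read the same way. Of 265 listed symbols beside the 33, 36 were not analysed here and 4 matched by another symbol. RefSeq GRCr8 served for names, overlaps and promoter windows. Overlaps not named above were Rdh5 with Cd63, a pseudogene with Ctsk, and long non-coding RNAs with Lamp1, Neu1, Tfeb, Cstb and Vamp8.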

Additional observations from a re-analysis of the deposited data

Results flagged for a closer look

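In 5 of 70 sets of 4 control values for named genes, 1 library stood apart by more than Dixon's criterion allows, where chance gives about 3.5. Ctsa was at 167 CPM in control c and at 185 to 188 CPM in the other controls. Dnase2 was at 67.2 CPM in control d and at 58.4 to 59.5 CPM in the others, and Scarb2 at 179 CPM in control b and at 215 to 220 CPM in the others. Atp6v1c1 was at 93.5 CPM in control d, against 88.9 to 89.7 CPM. Atp6v0d2 was at 0.327 CPM in control b, against 0.0467 to 0.0855 CPM. Groups of 3 UVB libraries were not tested.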

How the results depend on the processing

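Leaving out 1 library at a time gave 851 to 1898 genes called over all genes, 1 to 4 of the 33 higher, 1 to 3 lower, a median of -0.020 to 0.044 over the 33, and 8 to 19 other pathway genes called. With log2(TPM + 1) and no filter on low values, 1 of the 33 was lower and 11 other pathway genes were called. No other scaling, filter or tool moved these counts by over 1.5 times; DESeq2 called 2400 genes. The sign turned under some alternative in 9 of the 33, none of them past the threshold. Ctss was 0.0102 with limma-voom, 0.0121 with log2(TPM + 1), with or without the filter, and 0.0161 with log2(TPM + 0.1). With each library left out, Ctss ran from -0.24 to 0.24, Ctsb from -0.096 to 0.038, Lamp1 from -0.11 to 0.11 and Tfeb from -0.044 to 0.074. Over all alternatives Ctsh ran from -0.10 to 0.088, Ctsa from -0.037 to 0.089, Neu1 from -0.032 to 0.20, Asah1 from -0.20 to 0.0061 and Galc from -0.049 to 0.061. The cause was not tested. No paired analysis was possible because value columns cannot be matched to numbered replicates. With 4 and 3 libraries and changes under 1.5-fold, a miss of the threshold does not show that a gene was the same in both groups.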

Other observations

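Psapl1, a gene whose protein resembles prosaposin, was chosen after its values were seen. It was at 2641, 2247, 2444 and 2601 CPM in controls and at 1859, 1977 and 1687 CPM after UVB. All UVB libraries were below all controls, with a log2 fold change of -0.43 (adjusted p = 0.0180 in edgeR, standard error 0.092), while Psap had 0.11. The adjusted p was 0.0512 with control c left out, 0.0547 with control d left out and 0.0619 with UVB c left out. In TPM the Psapl1 level was 1632 ± 111 in controls and 1215 ± 89.5 after UVB (SD, n = 4 and 3), above the 501 and 542 TPM of Psap, and it ranked between 45 and 104 of 17246 genes over the libraries. Sorcs2 overlaps it in the RefSeq annotation.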
